A study of Mus musculus with 12 samples.

Results

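The 6 RNAs described here are products of RNA polymerase III, the polymerase that makes tRNA, 5S rRNA and a set of short structured noncoding RNAs. They are Rn7sk, Rpph1, Rmrp, Rn7s1, Rn7s2 and Rn7s6, which are 6 of the 48526 genes of the count table. The members were listed by symbol, matched to the table through the GENCODE annotation of mouse genome build GRCm38, and chosen by their shares of counts per library, which were known in all 4 groups. Their levels and the differences between groups are therefore a description and carry no test. Statistical tests are given only for genes outside this list.

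Total RNA was sequenced from BMDMs, that is, mouse macrophages obtained by culturing bone marrow for 6 days with medium conditioned by L929 cells. The cells came from mice homozygous for the HSS9 knockout (KO), a deletion upstream of Tnf that removes no gene of the count table, and from wild-type (WT) mice. By the methods of the study the mice were male and 7 to 10 weeks old. Cells of each genotype were left untreated (UT) with PBS or received LPS, the lipopolysaccharide of bacteria that macrophages sense through TLR4, for 6 hr. Each of the 4 combinations, named WT UT, WT LPS, KO UT and KO LPS, had 3 libraries. The labels name WT littermates, whereas the methods describe purchased WT mice and KO mice bred as homozygotes, so the effect of the deletion and other differences between the mouse stocks cannot be told apart. The labels do not say whether the libraries of a group came from separate mice, so the spread between them may be technical in part.

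Each RNA is the core of a ribonucleoprotein. Rn7sk encodes 7SK RNA, which with HEXIM and LARP7 proteins holds the elongation kinase P-TEFb in an inactive state. Rpph1 encodes the catalytic RNA of RNase P, which removes the leader of precursor tRNAs, and Rmrp encodes the related RNA of RNase MRP, which cuts precursor ribosomal RNA. The Rn7s genes encode 7SL RNA, the scaffold of the signal recognition particle that brings nascent secretory proteins to the endoplasmic reticulum. These RNAs are not polyadenylated, so they are counted in total RNA libraries. In bulk samples a change in cell content and a change in RNA per cell cannot be told apart.

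Rn7sk (ENSMUSG00000065037.1) is a gene of 331 bases on the minus strand of chr9:78175303-78175633. The first 110 bases are shown because HEXIM1 is known to bind GATC repeats in the first hairpin of 7SK. The capitals mark the 3 GATC matches of the whole RNA, on the transcribed strand, at positions 13, 42 and 64 from the first base. Sequences are from the GENCODE transcripts of GRCm38, 5′ to 3′, with T for U.
Rn7sk, bases 1 to 110: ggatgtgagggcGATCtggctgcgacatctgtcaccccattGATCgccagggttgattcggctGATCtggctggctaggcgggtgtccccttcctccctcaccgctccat
A gene annotated as Gm24447, on chr15:93234363-93234700, begins with the same 241 bases as Rn7sk. The stretch from base 211 to base 290 of both is shown, with capitals where they are no longer shared.
Rn7sk, bases 211 to 290: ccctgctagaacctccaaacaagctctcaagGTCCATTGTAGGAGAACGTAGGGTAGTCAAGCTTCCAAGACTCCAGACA
Gm24447, bases 211 to 290: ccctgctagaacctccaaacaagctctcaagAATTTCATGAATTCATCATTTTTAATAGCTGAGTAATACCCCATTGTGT
Rn7sk had 10140591 counts over the 12 libraries, and the 10 other annotated genes with a match to it, over at least 28 bases in a row, together had 0.551% of that number. Gm24447 had 53451 of those counts.

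Rpph1 (ENSMUSG00000092837.1) is a gene of 319 bases on the minus strand of chr14:50807449-50807767. The annotation places 233 of its bases inside an exon of Ccnb1ip1 on the same strand, a gene with 0 counts. Rmrp (ENSMUSG00000088088.1) is a gene of 271 bases on the minus strand of chr4:43492788-43493058, and 124 of its bases lie opposite an exon of Ccdc107. These parts are in capitals below, since reads there could be assigned to either gene. For Rpph1 this holds with or without use of strand in the counting, and for Rmrp only if strand was not used.
Rpph1, bases 1 to 300: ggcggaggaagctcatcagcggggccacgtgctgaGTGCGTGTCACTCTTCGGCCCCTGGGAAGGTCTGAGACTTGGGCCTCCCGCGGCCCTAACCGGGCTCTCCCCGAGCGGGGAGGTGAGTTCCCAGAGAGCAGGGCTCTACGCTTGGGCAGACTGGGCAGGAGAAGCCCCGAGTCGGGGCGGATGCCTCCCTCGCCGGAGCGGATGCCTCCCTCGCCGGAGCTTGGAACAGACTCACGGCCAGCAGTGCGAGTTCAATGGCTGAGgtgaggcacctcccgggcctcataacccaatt
Rmrp, bases 1 to 271: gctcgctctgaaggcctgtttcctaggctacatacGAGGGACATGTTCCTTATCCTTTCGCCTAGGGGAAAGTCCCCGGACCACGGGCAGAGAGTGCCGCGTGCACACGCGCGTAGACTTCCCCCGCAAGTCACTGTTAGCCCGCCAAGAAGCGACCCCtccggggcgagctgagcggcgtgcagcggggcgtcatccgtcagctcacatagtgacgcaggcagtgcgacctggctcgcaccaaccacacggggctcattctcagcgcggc
Rmrp had no such match under another symbol, but the annotation holds a second, slightly longer entry named Rmrp over the same bases, which was not used here. The 3 other matches of Rpph1 had 2 counts in all. Both RNAs are rich in G and C, at 67.1% for Rpph1 and 64.2% for Rmrp, against 58.0% for Rn7sk.

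The 3 genes for 7SL RNA are Rn7s1 (ENSMUSG00000099021.1) on the plus strand of chr12:69159295-69159594, Rn7s2 (ENSMUSG00000099250.1) on the minus strand of chr12:69361182-69361481, and Rn7s6 (ENSMUSG00000092746.2) on the plus strand of chr6:69516339-69516629. Rn7s1 and Rn7s2 are identical over all 300 bases. Rn7s6 has 291 bases and shares the first 214 with 98.6% identity. A read that lies inside Rn7s1 cannot be told from a read of Rn7s2, and the handling of such reads is not given in the sources used here. The values of the 3 Rn7s genes are therefore uncertain as levels of single genes.

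Read totals ranged from 26154533 to 36423921 counts per library. Each value below is the percent of all gene counts of a library. With these totals the 95% Wilson interval of a share is narrow, for example 1.98 to 1.99% for Rn7sk in WT UT replicate 1 and 0.000267 to 0.00039% for the lowest value, Rn7s6 in WT LPS replicate 1. Such intervals hold only the error of counting, because PCR copies of 1 molecule could be counted more than once. Of 26120 genes with a count, Rn7sk ranked 1, Rpph1 ranked 4 and Rmrp ranked 15 by mean share. The label abundant held for these 3 genes but not for the 7SL genes, which ranked 3286 (Rn7s2), 4402 (Rn7s1) and 9067 (Rn7s6). The 7SL genes together had at most 5527 counts in a library.

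The libraries had the markers of macrophages and few of other cells. The summed level of 8 macrophage markers, among them Csf1r and Adgre1, ranged from 22660 to 39720 CPM, a count scaled to a common library total. The summed levels were 26.5 to 64.6 CPM for 8 neutrophil markers, 6.01 to 23.7 for 7 stromal markers, at most 2.07 for 5 B cell markers, at most 3.94 for 5 T cell markers and at most 0.0613 for 5 erythroid markers. The neutrophil marker Ly6g was at 0 in all 12 libraries. In UT cells the neutrophil markers moved with genotype, at 26.5 to 28.4 CPM in WT UT and 50.1 to 55.7 CPM in KO UT. After LPS the ranges of the genotypes did not overlap for macrophage markers (22660 to 24010 CPM in WT and 24580 to 26220 in KO), stromal markers (17.8 to 19.7 and 21.99 to 23.7) and T cell markers (0.306 to 0.475 and 0.595 to 0.889). Stromal markers were at 6.01 to 7.87 CPM in UT libraries of both genotypes. Single genes made up much of these sums. Cd4 reached 3.60 CPM, whereas Cd3d, Cd3e, Cd3g and Cd8a were at most 0.167. Pdgfrb reached 16.9 CPM and the other stromal markers at most 2.69. S100a8 and S100a9 reached 54.6 and 30.9 CPM, and the other neutrophil markers at most 3.84. The T cell and stromal sums are therefore not read as cell content. The WT LPS libraries had 41.3, 48.7 and 64.6 CPM of neutrophil markers, in the same order as the summed share of the 6 RNAs. The part of these markers in the results was not tested.

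Together the 6 RNAs took 3.16, 2.97 and 2.92% of counts in WT UT libraries and 7.70, 7.56 and 6.51% in KO UT libraries. They took 3.93, 5.23 and 6.72% in WT LPS libraries and 3.29, 3.27 and 3.15% in KO LPS libraries. The group means were 3.02% ± 0.129 for WT UT, 7.26% ± 0.651 for KO UT, 5.29% ± 1.40 for WT LPS and 3.24% ± 0.0760 for KO LPS (SD, n = 3). KO UT and WT LPS were thus the high groups, and KO LPS and WT UT the low groups. The 2 high groups overlapped each other, as did the 2 low groups, whereas the lowest WT LPS library, at 3.93%, lay above the highest KO LPS library, at 3.29%. The WT LPS libraries were the most spread. Other abundant RNAs also moved with genotype. Genes at ribosomal RNA loci took 2.00 to 2.27% of counts in WT UT and 1.54 to 1.99% in KO UT, and 1.99 to 2.23% in WT LPS and 1.36 to 1.60% in KO LPS. Malat1, a nuclear noncoding RNA, took 1.51 to 1.55% in WT UT and 1.1716 to 1.29% in KO UT, and 1.18 to 1.23% in WT LPS and 0.970 to 1.02% in KO LPS. Mitochondrial ribosomal RNA overlapped in UT and took 0.818 to 0.933% in WT LPS and 0.986 to 1.10% in KO LPS. The part of RNA composition in the results was not tested.

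**Figure D1:**
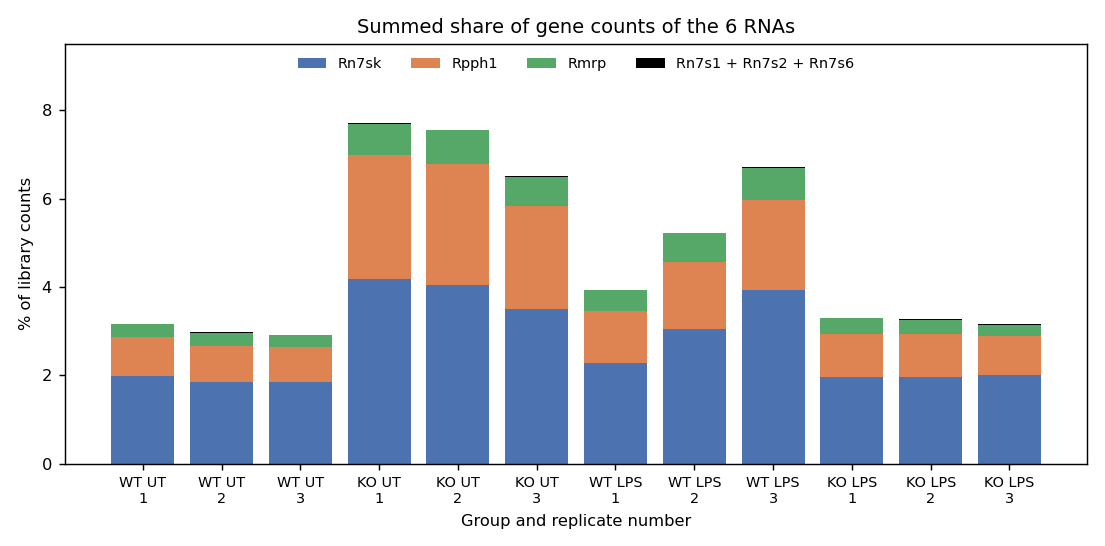
Stacked bars give, for each of the 12 libraries, the percent of all gene counts taken by Rn7sk, Rpph1, Rmrp and the 3 Rn7s genes together. The 3 KO UT bars reach 6.51 to 7.70%, the 3 WT UT bars 2.92 to 3.16%, and the Rn7s genes are too low to be seen at this scale.

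Rn7sk was the largest part of the sum. Its share was 1.99, 1.84 and 1.84% in WT UT, and 4.19, 4.04 and 3.51% in KO UT. After LPS it was 2.29, 3.05 and 3.93% in WT and 1.95, 1.96 and 2.00% in KO. The KO UT libraries all lay above the WT UT libraries, and the KO LPS libraries all lay below the WT LPS libraries. The mean was 1.89% ± 0.0841 in WT UT and 3.91% ± 0.357 in KO UT (SD, n = 3), a ratio of 2.07 (log2 ratio 1.05). Between WT LPS (3.09% ± 0.820) and KO LPS (1.97% ± 0.0274) the log2 ratio was -0.65.

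Rpph1 had the largest ratio of KO UT to WT UT means of the 6 RNAs, but with medians Rn7s2 (log2 1.80) and Rn7s6 (log2 1.75) exceeded Rpph1 (log2 1.73). Its share was 0.879, 0.829 and 0.805% in WT UT and 2.81, 2.74 and 2.32% in KO UT, which are means of 0.838% ± 0.0377 and 2.62% ± 0.267 and a ratio of 3.13 (log2 1.65). With LPS the share was 1.172, 1.51 and 2.03% in WT and 0.980, 0.984 and 0.882% in KO, a log2 ratio of -0.73. The groups did not overlap in either comparison, and all WT LPS libraries were below all KO UT libraries.

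Rmrp followed the same order of groups. Its share was 0.288, 0.294 and 0.267% in WT UT and 0.687, 0.767 and 0.674% in KO UT, a log2 ratio of means of 1.32. After LPS it was 0.466, 0.649 and 0.743% in WT and 0.352, 0.321 and 0.259% in KO, a log2 ratio of -0.996. The groups did not overlap within either treatment, but the highest WT LPS library lay above the lowest KO UT library.

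The 3 abundant RNAs did not differ by 1 common factor. Counts of Rpph1 per count of Rn7sk were 0.443 ± 0.00631 in WT UT, 0.671 ± 0.00951 in KO UT, 0.508 ± 0.0113 in WT LPS and 0.481 ± 0.0357 in KO LPS (SD, n = 3). The KO UT range of 0.661 to 0.680 lay above every library of the other groups. Counts of Rmrp per count of Rpph1 were 0.338 ± 0.0145 in WT UT and 0.272 ± 0.0243 in KO UT, again without overlap. These ratios come from the same shares that chose the members and do not depend on how a library is scaled.

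**Figure D2:**
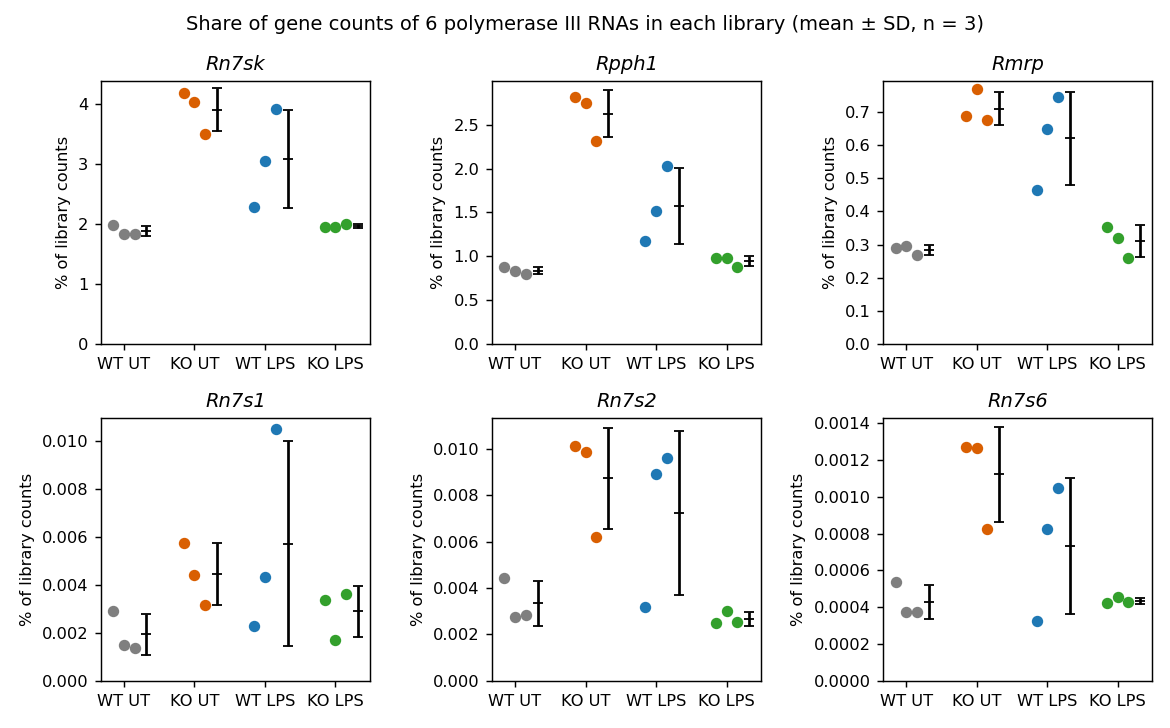
Points give the percent of library counts of each of the 6 RNAs in the 12 libraries, by group, with the mean and SD (n = 3) beside them; each panel has its own axis from 0. KO UT points lie above WT UT points in all 6 panels, and the WT LPS points are the most spread.

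The 7SL genes were lower by orders of magnitude. Rn7s2 had 1477, 959 and 1028 counts in WT UT, and 3033, 2899 and 2088 in KO UT. LPS-treated WT libraries had 1049, 2435 and 2512 counts, and KO ones 789, 979 and 851. The KO UT libraries were all above the WT UT libraries, and the KO LPS libraries were all below the WT LPS libraries, although WT LPS replicate 1 was close to WT UT.

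Rn7s1 had 964, 529 and 505 counts in WT UT, and 1725, 1302 and 1063 in KO UT. In LPS-treated cells the counts were 753, 1183 and 2741 for WT libraries but 1073, 551 and 1214 for KO libraries, so the groups overlapped. Rn7s6 had 178, 131 and 137 counts in WT UT, 381, 373 and 278 in KO UT, 106, 226 and 274 in WT LPS and 134, 148 and 145 in KO LPS. For Rn7s6 the groups were apart in UT and overlapped after LPS.

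Although Rn7s1 and Rn7s2 are identical in sequence, Rn7s2 had 0.701 to 2.23 counts per count of Rn7s1, depending on the library. The summed share of both was 0.00527% ± 0.00181 in WT UT, 0.0132% ± 0.00339 in KO UT, 0.0129% ± 0.00730 in WT LPS and 0.00557% ± 0.000770 in KO LPS (SD, n = 3). The sum was higher in every KO UT library than in every WT UT library. The 7SL-like gene Gm26461, which shares its first 104 bases with Rn7s1, varied from 38 to 421 counts and had no group apart from the others.

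Per kilobase of gene, the order of mean levels was Rn7sk, Rpph1, Rmrp, Rn7s2, Rn7s1 and Rn7s6 in WT UT, with 57071, 26256, 10455, 111, 64.5 and 14.7 CPM per kb. The order was the same in KO UT and WT LPS. In KO LPS Rn7s1 (96.4 CPM per kb) and Rn7s2 (89.1 CPM per kb) changed places, within their spread of 35.0 and 9.55 (SD, n = 3).

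For the genotype comparison in UT cells, 6 of 6 RNAs were higher in every KO library than in every WT library, with log2 ratios from 1.05 to 1.65. Of the 15523 genes that passed the filter on low counts, 12.5% met this condition in the same direction. After LPS, 4 of 6 RNAs were lower in every KO library, and Rn7s1 and Rn7s6 overlapped, with log2 ratios from -1.44 to -0.65 over all 6. The share of all genes was 14.7%. In both treatments 4 of 6 RNAs met the condition, against 0.850% of all genes. All 6 RNAs passed the filter. Since these contrasts were used in choosing the members, nothing is read from the counts.

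The 2 responses to LPS ran in opposite directions. In WT cells the log2 ratios of LPS to UT were all above 0, from 0.71 for Rn7sk to 1.56 for Rn7s1, and 3 of 6 RNAs (Rn7sk, Rpph1 and Rmrp) were higher in every LPS library, against 19.5% of all genes. Without WT LPS replicate 3 the value of Rn7s1 was 0.775, and for KO LPS against WT LPS it was -0.19. In KO cells they were all below 0, from -1.71 for Rn7s2 to -0.62 for Rn7s1 (-0.35 without KO LPS replicate 2 and -0.39 without KO UT replicate 1), and 5 of 6 RNAs were lower in every LPS library, against 58.7% of all genes. Each group enters 1 comparison of genotypes and 1 comparison of treatments, so these are not independent.

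LPS changed the composition of the counts for many genes. The median log2 ratio of shares over all genes tested was -0.61 for LPS against UT in WT, -0.56 in KO, -0.15 for KO against WT in UT and -0.0044 after LPS. With TMM scaling, which centres the bulk of the genes, the summed share had log2 ratios of 1.48 for the WT response, -0.66 for the KO response, 1.42 for KO against WT in UT and -0.72 after LPS. The sign of each of the 6 RNAs in each comparison was the same under TMM scaling, and the KO response was then smaller, at -0.48 for Rn7sk, -0.96 for Rpph1, -0.68 for Rmrp and -0.11 for Rn7s1.

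**Figure D3:**
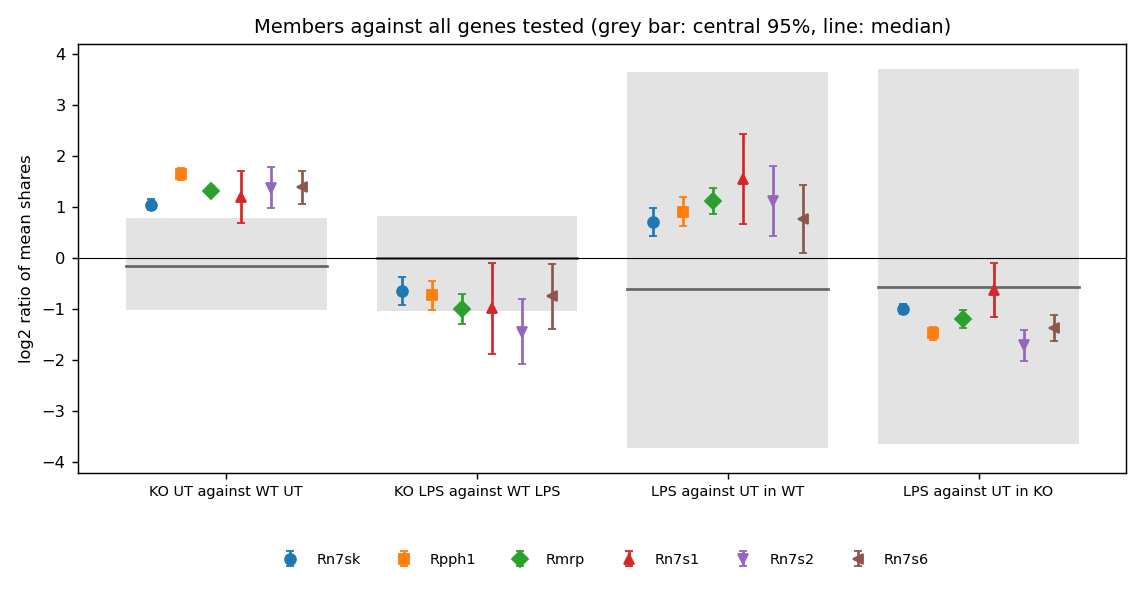
Points give the log2 ratio of mean shares of each of the 6 RNAs in 4 comparisons, with bars for the SD of log2 shares within the compared groups; grey bars span the central 95% of all 15523 genes tested and the grey line is their median. In UT the members, at 1.05 to 1.65, lie above the grey bar, which ends at 0.79, and in the LPS responses they lie inside it. For KO LPS against WT LPS the bar starts at -1.03, Rn7s2 lies below it at -1.44 and the other members lie inside. The members were chosen by these shares.

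The replicate number in the labels is a batch number, so ratios were also taken within each number. In UT the log2 ratio of the sum was 1.29, 1.35 and 1.16 within numbers 1, 2 and 3. After LPS it was -0.26, -0.68 and -1.09, so the direction held within each number but the size did not. For Rn7s1 and Rn7s6 the direction itself changed in number 1, at 0.56 and 0.39. The WT response in number 1 was below 0 for all 3 7SL genes, at -0.34 for Rn7s1, -0.48 for Rn7s2 and -0.73 for Rn7s6, and the KO response of Rn7s1 in number 3 was above 0, at 0.19. The lowest WT LPS library has the most counts of its group (32828482) and the highest has the fewest (26154533), and the part of depth was not tested.

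Other short structured RNAs were examined beside the members. Small Cajal body RNAs (scaRNAs), which guide modification of spliceosomal RNAs and are made by RNA polymerase II, took 0.0453 to 0.0483% of counts in WT UT, 0.0649 to 0.0702% in KO UT, 0.0571 to 0.0898% in WT LPS and 0.0456 to 0.0518% in KO LPS. In the edgeR quasi-likelihood test on all genes, with Benjamini-Hochberg adjustment, 6 of 12 scaRNA genes tested were higher and 0 lower in KO UT, and 0 were higher and 5 lower in KO LPS. Of 117 small nucleolar RNA genes, 8 were higher and 2 lower in UT, and 0 higher and 10 lower after LPS, and of 57 small nuclear RNA genes 4 were higher and 1 lower in UT, and 0 higher and 6 lower after LPS. Over all genes, 23.8% passed an adjusted p below 0.05 in UT and 14.3% after LPS. The calls of small nucleolar and small nuclear RNA genes were smaller shares than these, a difference that was not tested. Small nuclear RNAs took 0.00825% ± 0.000271 of counts in WT UT and 0.00841% ± 0.000667 in KO UT (SD, n = 3), with ranges that overlapped, and 0.00941 to 0.0107% in WT LPS and 0.00572 to 0.00776% in KO LPS, without overlap. Small nucleolar RNAs took 0.0177 to 0.0191% in WT UT and 0.0236 to 0.0249% in KO UT, and 0.0235 to 0.0322% in WT LPS and 0.0165 to 0.0203% in KO LPS, without overlap in either treatment. The median log2 ratio of shares was 0.48 for scaRNA genes in UT and -0.53 after LPS, against -0.15 and -0.0044 over all genes and 1.35 and -0.86 for the 6 members.

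Most other polymerase III transcripts were hardly counted. The 180 5S rRNA genes of the table had 14 to 48 counts per library in all, Rny1 had at most 7 and Rnu6 at most 1. Rny3 and Vaultrc5, for a Y RNA and a vault RNA, had at most 40 and 25 counts. Vaultrc5 had an interaction of genotype and LPS of -1.92 on the log2 scale (SE 0.643, adjusted p 0.0449, edgeR), and 16.8% of all genes passed this test. The genotype differences of Rny3 and Vaultrc5 did not pass the test in either treatment, with adjusted p from 0.060 to 0.693 in edgeR. tRNA genes were not analysed here.

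The genes whose log2 share was most like that of the summed members over the 12 libraries were Gm22442 (Pearson r = 0.95), a scaRNA gene, and Gm24447 (r = 0.94), whose first 241 bases are those of 7SK. They were followed by Dbi (r = 0.94), Cox7a2 (r = 0.94), Snrpf (r = 0.93) and Pdcd5 (r = 0.93). The 12 points share 4 groups and each library's depth, and the r values are descriptions. Gm24447 was at 98.0 CPM ± 15.6 in WT UT, 212 ± 54.8 in KO UT, 175 ± 67.1 in WT LPS and 92.9 ± 17.1 in KO LPS (SD, n = 3). Dbi encodes an acyl-CoA binding protein and Cox7a2 a subunit of cytochrome c oxidase. The median annotated transcript lengths of the 4 coding genes were 504, 477, 861 and 675 bases.

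The genes next to the members were examined as a check on read-through and overlap. Parp2, which starts 74 bases from Rpph1 on the other strand, had log2 fold changes of 0.04 in UT and 0.17 after LPS, and neither passed the test. Nemf near Rn7s2 and Ick near Rn7sk did not pass it for genotype either. C920006O11Rik, 281 bases from Rn7sk on the other strand, Arhgef39 near Rmrp and Lrr1 near Rn7s1 were also tested, and their values are not given here. Rps29, a ribosomal protein gene 109 bases from Rn7s1 on the other strand, rose in KO UT by 0.96 on the log2 scale (SE 0.136, adjusted p 1.95e-05, edgeR), from 613 CPM ± 28.3 to 1192 ± 156 (SD, n = 3). Ccdc107, which overlaps Rmrp on the other strand, had an interaction of -0.93 (SE 0.257, adjusted p 0.0159, edgeR).

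The proteins that bind or make these RNAs were examined as 7 lists of 81 genes, of which 79 were tested. For KO against WT in UT cells 18 were higher and 3 lower, that is, 21 of 79, near the share of 23.8% among all genes. Of the 79, 0 passed the further condition of an absolute log2 fold change above 1. Among all genes 1.82% passed with that condition. The split was 16 to 10 with RLE size factors and in DESeq2, and 17 to 8 with upper-quartile size factors. The median log2 fold change of the 79 genes was 0.0359, against 0.0014 for all genes, and it was -0.0285 with offsets for transcript length.

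For 7SK, 0 of 7 genes of its particle were called in UT (edgeR, with 0 at an unadjusted p below 0.05). In DESeq2 and under RLE scaling Ccnt1, the cyclin of P-TEFb, was called. Hexim1, the inhibitor that binds 7SK, was at 28.6 CPM ± 1.24 in WT UT and 29.6 ± 1.45 in KO UT (SD, n = 3), a log2 fold change of 0.05 (SE 0.0668). Larp7, which stabilizes the 3′ end of 7SK, was at -0.08 and Mepce, the enzyme that caps it, at -0.09. With offsets for transcript length, Mepce (-0.39, adjusted p 0.0011, edgeR) and Ccnt1 (-0.20, adjusted p 0.0182) were called lower. After LPS Hexim1 was higher in KO by 0.26 (SE 0.0722, adjusted p 0.0182, edgeR), a call lost without WT LPS replicate 2 or without KO LPS replicate 1.

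For RNase P and RNase MRP, 6 of 10 protein genes were higher in KO UT and 0 lower, against 2196 and 1504 of all 15523 genes tested. The lists were chosen with earlier results of these data known. Rpp21, an RNase P subunit, rose from 16.4 CPM ± 0.527 to 25.4 ± 3.01 (SD, n = 3), a log2 fold change of 0.63. Pop5 rose by 0.59, Pop7 by 0.49, Rpp30 by 0.49, Rpp25l by 0.46 and Pop4 by 0.24 on the log2 scale, the last a call lost in DESeq2, under RLE scaling, with length offsets and without WT UT replicate 1, KO UT replicate 1 or KO UT replicate 3, whereas Pop1, the largest subunit of both enzymes, was at -0.04 and did not pass the test. After LPS 0 of 10 were called between the genotypes (edgeR, with 1 at an unadjusted p below 0.05, and the direction of Rpp21 was -0.20). The interaction was called for 4 genes, all below 0, at -0.83 for Rpp21, -0.63 for Pop7, -0.57 for Rpp25l and -0.53 for Pop5, and with a replicate block Pop5 was no longer called.

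Of 9 signal recognition particle genes, Srp14 and Srp9, which form the Alu domain dimer on 7SL, were higher in KO UT by 0.60 and 0.46 on the log2 scale, and Srp72 was lower by -0.22. With a replicate block Srp72 was not called. Without WT UT replicate 1, 2 or 3, or KO UT replicate 1 or 2, its call was lost too. The same held without replicate 2 of WT LPS or of KO LPS. The GTPase gene Srp54a had fewer than 1 CPM on average and did not pass the test at 0.17. After LPS 0 of 9 were called (edgeR, with 0 at an unadjusted p below 0.05).

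Of 18 subunit genes of RNA polymerase III, 7 were higher in KO UT and 0 lower, against 2196 and 1504 of all 15523 genes tested. All 7 encode subunits shared with other RNA polymerases, which are Polr2k (0.73), Polr2f (0.69), Polr2l (0.64), Polr2h (0.51), Polr1d (0.43), Polr1c (0.39) and Polr2e (0.39 on the log2 scale). The 11 genes for subunits found in polymerase III alone had 0 calls, among them Polr3a, which encodes the largest subunit, at -0.05 (SE 0.0638). Of the 18 transcription factor genes Snapc5, of the complex that reads upstream promoter elements such as that of 7SK, rose by 0.72 from 25.5 CPM ± 0.811 to 42.1 ± 1.79 (SD, n = 3). The second call, Gtf3a at 0.22, was lost with a replicate block, in DESeq2, under RLE or upper-quartile scaling and with length offsets. It was also lost without the low-count filter, WT UT replicate 1, 2 or 3, KO UT replicate 1 or 3, or WT LPS replicate 2. In DESeq2 and under RLE scaling Bdp1, Gtf3c1, Pou2f1 and Snapc1 were called lower. Brf1 was at 0.07. Maf1, the repressor of polymerase III, was higher in KO UT by 0.27 (SE 0.0582, adjusted p 0.0015, edgeR) and by 0.15 with length offsets (adjusted p 0.0447), a call lost when a replicate block was added to the offsets, and Trp53, the tumour suppressor p53 that restrains polymerase III, was lower by -0.40. Ssb, the La protein that binds new polymerase III transcripts, was at 0.12 and did not pass the test, and Tent4b was the 1 call among 12 genes of RNA handling and decay, at -0.27, a call lost with length offsets and without WT UT replicate 3, KO UT replicate 1 or KO UT replicate 3. Tut4 and Tut7 were also called under RLE scaling, upper-quartile scaling and in DESeq2, and Tut4 and Usb1 with length offsets.

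**Figure D4:**
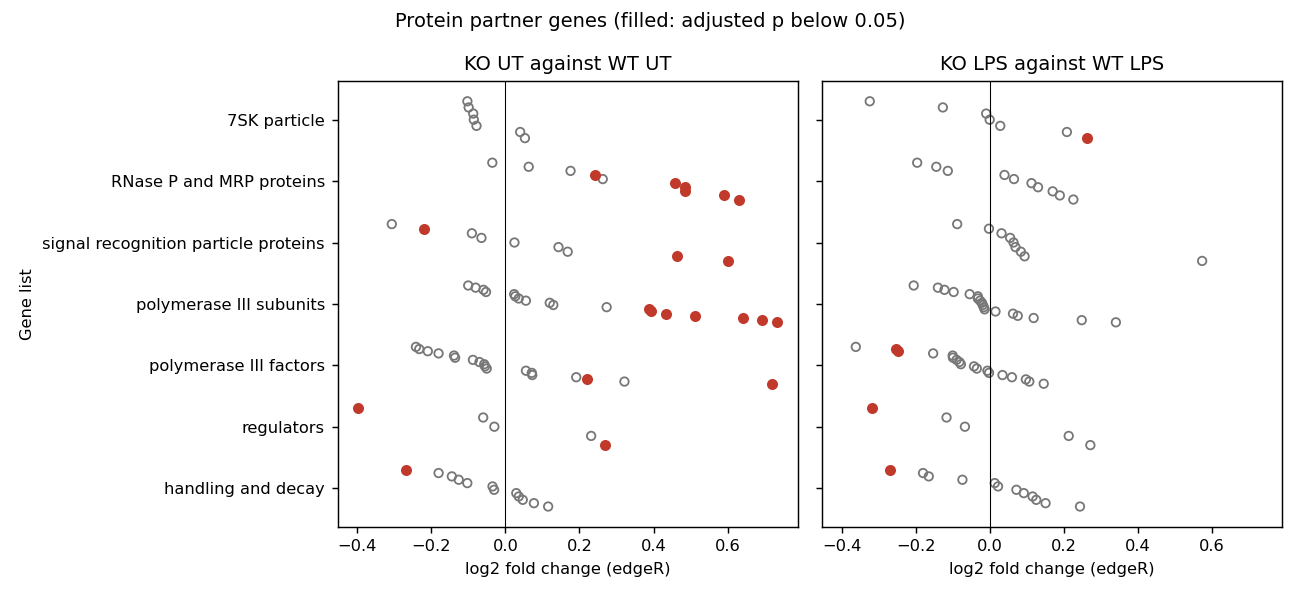
Points give the edgeR log2 fold change of each of the 79 partner genes by list, for KO UT against WT UT (left) and KO LPS against WT LPS (right); filled points have an adjusted p below 0.05. In UT 18 filled points lie right of 0 and 3 left of it, and after LPS 1 lies right and 4 left.

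After LPS, KO against WT called 5 of 79 partner genes, 1 higher and 4 lower, where 14.3% of all genes were called, and the calls that were lower were Bdp1, Pou2f1, Trp53 and Tut4 with log2 fold changes from -0.32 to -0.25. Leaving out single libraries gave 1 call without KO LPS replicate 1, 2 without KO LPS replicate 2 and 11 without WT LPS replicate 1. It gave 3 calls without KO LPS replicate 3, WT LPS replicate 2 or 3, WT UT replicate 3 or KO UT replicate 2. With the further fold condition 1.25% of all genes passed in this comparison and 0 partner genes did. The interaction of genotype and LPS called 14 of 79 partner genes, 1 higher and 13 lower, near the share of 16.8% among all genes, and 0 with the fold condition, which 2.16% of all genes met. Under RLE scaling this split was 5 and 11, and in DESeq2 5 and 12.

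For LPS against UT, 31 of 79 partner genes rose and 26 fell in WT cells, and 24 rose and 31 fell in KO cells, near the 73.3% and 72.8% of all genes that were called. Under upper-quartile scaling the splits were 17 and 32 in WT and 17 and 41 in KO. With an absolute log2 fold change above 1, 5 rose and 9 fell in each genotype, against 37.8% and 37.0% of all genes. Among particle proteins, the P-TEFb cyclin gene Ccnt2 rose by 0.79 in WT and 0.77 in KO, Srpr, the receptor of the signal recognition particle, rose by 0.98 and 1.01, and Rpp40 of RNase P and MRP was at -1.49 and -1.54. Usb1, which trims the end of U6 RNA, rose by 2.73 in WT and 2.66 in KO. Snapc1 rose by 1.53 and 1.67, and Bdp1, a part of the initiation factor TFIIIB, by 1.22 and 1.11. Polr3g, a polymerase III subunit, had log2 fold changes of -1.65 and -2.13, and Polr3gl, its alternative form, had -1.63 and -1.42. The largest subunit gene Polr3a rose by 0.24 and 0.28, and neither call held under upper-quartile scaling.

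Transcript length moved with the genotype difference in UT cells. Among protein-coding genes tested, the median log2 fold change of KO UT against WT UT was 0.24 for the 314 genes with a median annotated transcript of up to 500 bases, 0.06 for 500 to 1000 bases, 0.01 for 1000 to 2000, -0.07 for 2000 to 4000 and -0.12 for the 812 genes above 4000. In KO LPS against WT LPS the same classes were at -0.07, 0.02, 0.03, 0.02 and 0.02, and for the interaction they were at -0.29, -0.05, 0.02, 0.10 and 0.16. The 13 partner genes with a lower interaction call had a median transcript length of 765.5 bases, against 1042 bases for the 65 that were not called. The 18 partner genes called higher in KO UT had a median transcript length of 830 bases, against 1014 bases for the 58 that were not called. With offsets for transcript length, an alternative chosen after the data had been seen, 16 partner genes were higher and 10 lower in UT, and 18 of the 21 calls remained. Rpp21 was then at 0.34, Srp14 at 0.45, Polr2k at 0.49 and Snapc5 at 0.64, all still called. The 6 members are 271 to 331 bases long, and the part of transcript length in their shares was not tested.

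**Figure D5:**
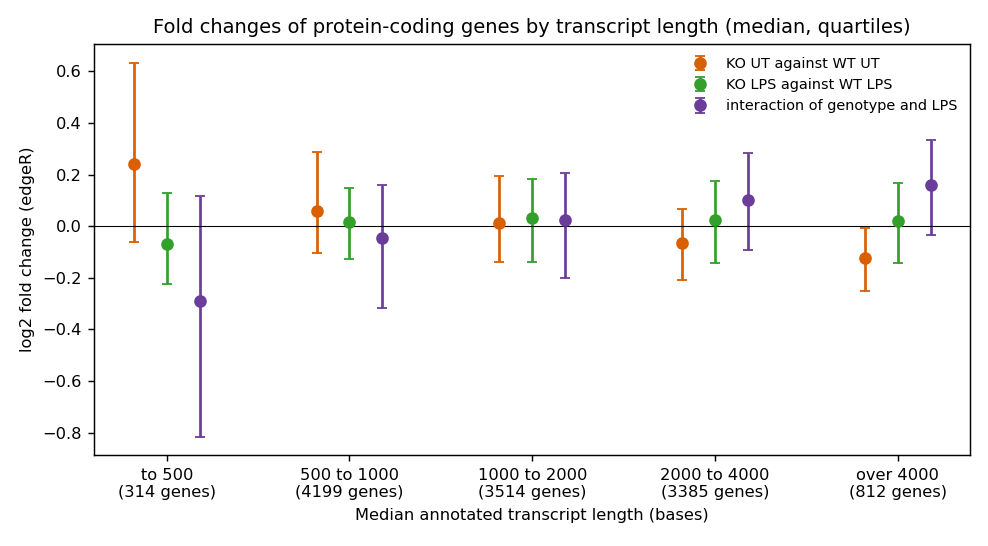
Points give the median, and bars the quartiles, of the edgeR log2 fold change of protein-coding genes in 5 classes of median annotated transcript length, for KO against WT in UT, after LPS, and for the interaction. In UT the median falls from 0.24 in the shortest class to -0.12 in the longest, and after LPS it stays between -0.07 and 0.03.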

How the data were processed

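Total RNA libraries of BMDMs (12 libraries, 4 groups of 3) were prepared by the authors with a stranded total RNA kit with globin depletion. The submitters' processing notes name FastQC 0.11.9, HISAT2 2.1.0, SAMtools 1.17 and featureCounts 2.0.0 and the build GRCm38. The annotation release, strand option and handling of multi-mapping reads are not given in the sources used here. The deposited table holds raw counts per Ensembl gene, without filter or normalization, and all groups come from the labels.

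Identifiers were matched without version to GENCODE (48144 of 48526, and the other 382 held 0.122% of counts). Shares are percent of all gene counts. Partner genes were tested by quasi-likelihood in edgeR 4.0.16 (limma 3.58.1, R 4.3.3) in 1 model of 4 group means over 12 libraries, with TMM scaling and filterByExpr (minimum count 10, minimum total 15), which kept 15523 genes, and with Benjamini-Hochberg adjustment over all of them. A gene was called at an adjusted p below 0.05. Levels of partner genes are CPM after TMM scaling, and levels of members, markers and like genes are CPM of all counts. Python 3.11.15 and matplotlib 3.10.9 were used for shares and figures, and near copies were found with blastn on the GENCODE transcripts. The fit was tested on simulated data.

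The members and all gene lists were chosen with earlier results of these data known. Named genes are the 6 members, for each list and contrast up to 3 called genes with the largest changes and a mean CPM of at least 1, and Hexim1, Larp7, Mepce, Pop1, Rpp30, Srp54a, Srp72, Polr3a, Polr3g, Brf1, Maf1 and Ssb always, with neighbours within 10 kb and the 6 genes with the highest r. Of these, the genes that tell the same as others are given by counts. Gm26461, Rny1, Rny3, Vaultrc5, Rnu6 and the other called polymerase III subunits and RNase P proteins are named outside the rule, after their values were seen.

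The labels give a batch number equal to the replicate number, so libraries with the same number are paired by label. Over the 18 such pairs, deviations from group means had r from -0.0631 to 0.0373, and 0 pairs exceeded 0.1. All 12 pairs of replicates within groups differed by more than sampling error, with a chi-square per degree of freedom of 3.81 or more. Alternatives were other denominators, TMM, RLE and upper-quartile scaling, the median, a replicate block, other filters, DESeq2 1.42.0, leaving out single libraries or members and, chosen after seeing the data, offsets for transcript length (available for 99.6% of genes tested). The sequences of the 7SL genes are not reported here.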

Additional observations from a re-analysis of the deposited data

Results flagged for a closer look

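For 4 of the 6 RNAs the direction of the difference between KO and WT turned between UT cells and LPS-treated cells in all libraries, since every KO library was above every WT library in UT and below every WT library after LPS, as for 0.850% of all genes tested. On the log2 scale the difference of the 2 ratios was -1.70 for Rn7sk, -2.38 for Rpph1, -2.32 for Rmrp and -2.82 for Rn7s2, and this difference was not tested, because these values chose the members. It was -2.18 for Rn7s1 and -2.14 for Rn7s6, whose LPS libraries overlapped between the genotypes. Without WT LPS replicate 3 the value of Rn7s1 was -1.40.

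The edgeR interaction of genotype and LPS passed the test for 14 partner genes. On the log2 scale it was -0.53 for Pop5, -0.63 for Pop7, -0.83 for Rpp21 and -0.57 for Rpp25l, which encode RNase P and RNase MRP proteins. It was -0.43 for Srp9 and -0.60 for Srp14, of the signal recognition particle. For polymerase III subunits it was -0.53 for Polr1c, -0.42 for Polr1d, -0.81 for Polr2f, -0.77 for Polr2k and -0.70 for Polr2l. It was -0.69 for the transcription factor subunit gene Snapc5, -0.39 for the repressor gene Maf1 and 0.38 for Tent4b, a noncanonical poly(A) polymerase gene. The call of Tent4b was lost with length offsets and on leaving out WT UT replicate 2 or 3, KO UT replicate 1 or 3, WT LPS replicate 2 or 3, or KO LPS replicate 1 or 3. The call of Polr1d was lost under RLE scaling, with length offsets and a replicate block together, and on leaving out WT UT replicate 2, KO UT replicate 1 or 2, WT LPS replicate 2 or KO LPS replicate 3. The call of Pop5 was lost under RLE scaling, in DESeq2, with length offsets, with a replicate block, and on leaving out WT UT replicate 1 or 3, KO UT replicate 2 or 3, WT LPS replicate 2 or 3, or KO LPS replicate 2 or 3. The call of Pop7 was lost without WT LPS replicate 2.

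Among other transcripts and neighbours of the members the interaction was -1.92 for Vaultrc5, which had at most 25 counts in a library, -0.93 for Ccdc107 and -1.15 for Rps29.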

How the results depend on the processing

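The sign of the summed share and of the 6 RNAs was the same under the alternatives run for each comparison, but ratios within single replicate numbers changed sign for Rn7s1, Rn7s2 and Rn7s6. The log2 ratio of the summed share for KO against WT in UT was 1.27, and it was 1.42 with TMM scaling, 1.40 with upper-quartile scaling, 1.57 without Rn7sk and 1.09 without Rpph1. The WT response of 0.81 became 1.48 with TMM, 1.43 with RLE and 1.30 with upper-quartile scaling. The KO response of -1.17 became -0.66, -0.62 and -0.84 under the same scalings, -1.40 without Rn7sk and -1.02 without Rpph1. The interaction of -1.98 was -2.37 without Rn7sk. Without single libraries the sum ranged from 1.22 to 1.34 in UT, -0.88 to -0.50 after LPS, 0.60 to 0.99 for the WT response, -1.24 to -1.12 for the KO response and -2.15 to -1.77 for the interaction. For the interaction the lowest size came without WT LPS replicate 3. For KO LPS against WT LPS the 5 partner calls ranged from 1 to 11 without single libraries. The other alternatives, 92 values of the summed share and 75 counts of partner genes, stayed within the spread of replicates or within 1.5 times.

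With a replicate block, the pairing that the labels give, the log2 ratio of the sum was 1.26 in UT, -0.68 after LPS, 0.78 and -1.16 for the WT and KO responses and -1.94 for the interaction. Partner calls were then 20, 4, 57, 54 and 13. The block ended the calls of Gtf3a and Srp72 in UT, Trp53 after LPS, Hexim1 in the KO response and Pop5 in the interaction, and it changed no other call except that Pou2f1 was gained in UT. Offsets for transcript length with a replicate block gave 25 calls in UT (15 higher and 10 lower) and 15 in the interaction (4 higher and 11 lower).

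With 3 libraries per group, unstated handling of shared reads and shares that sum to a whole, single 7SL genes and absolute amounts could not be resolved, and the 7SL genes had as few as 106 counts in a library.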
